A study of Rattus norvegicus with 18 samples.

Results

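The genes described here encode the proteins of the mitochondrial respiratory chain and ATP synthase, with the assembly factors and the inhibitor that share their names. They were chosen by name from the gene expression table of a rat study: every row named Nduf (complex I), Sdha to Sdhd (complex II), Uqc (complex III), Cox4 to Cox8 (complex IV), Atp5 (complex V) or Mt- (encoded in the mitochondrial genome). This gave 110 of 18923 listed genes. A gene entered the tests when it reached 1 FPKM (a fragment count divided by transcript length and by library size) in at least 3 of the 9 libraries used, and 105 of the 110 did so, beside 11708 of all genes. The 105 were 80 nuclear-encoded subunits (38 of complex I, 4 of complex II, 9 of complex III, 13 of complex IV and 16 of complex V), 13 mitochondrially encoded mRNAs, 8 complex I assembly factors, 3 complex III assembly factors and Atp5if1, the inhibitor of ATP synthase. The 5 that did not pass were Cox6a2, Cox7a1 and Cox8b, which are the forms of complex IV subunits known from heart and skeletal muscle, and the Ndufs6 and second Ndufa10l1 gene models.

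The tissue was rat nucleus pulposus, the soft centre of the disc between vertebrae. RNA was taken at 3 ages, 2, 10 and 20 months, and each age had 3 libraries of fragmented poly(A) RNA sequenced without antibody enrichment (input), with 3 more enriched for N6-methyladenosine. The 9 enriched libraries are not analysed here. The labels name no strain, sex or treatment, the groups differ in age alone as far as they say, and nothing says whether the 3 libraries of an age came from different animals. The p-values below therefore measure how these libraries spread, and that spread may be technical.

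The respiratory chain passes electrons from NADH through complex I, or from succinate through complex II, by way of coenzyme Q, complex III and cytochrome c to oxygen at complex IV, and complexes I, III and IV pump protons that drive ATP synthase (complex V). Complexes I, III, IV and V are each built from proteins of both genomes, while complex II is nuclear alone. The mitochondrial genes are transcribed from both strands as long precursors that are cut into separate RNAs, so that their mRNA is made by a machinery apart from that of the nuclear genes. The nucleus pulposus has no blood vessels of its own, lies in low oxygen and is known for relying on glycolysis.

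The input libraries held between 3.53 and 5.04 gigabases of sequence on the deposited scale. Libraries of the same age correlated at r = 0.984 to 0.993 across genes. The 3 libraries at 20 months stood apart in make-up: 80.1 to 80.9% of their bases lay on listed transcripts, against 85.6 to 86.1% at 2 and 10 months, and ribosomal protein genes held 19.2 to 19.8% of the summed FPKM, against 12.8 to 13.1% at 2 months and 15.2 to 15.4% at 10 months. The length of a single read, inferred from the lowest coverage values, was 132 bases in every library at 2 and 10 months and 141 in every library at 20 months, so that age and library handling cannot be told apart in comparisons with 20 months. The 11 listed markers of the nucleus pulposus had a summed FPKM between 29571 and 30926 in the youngest libraries. Every later library lay below that range, the 10-month ones between 25778 and 26077 and the 20-month ones between 26070 and 27322. Of the 9 markers that entered the limma test described below, comparing 10 with 2 months called 6 lower and 0 higher (median log2 change -0.41). Of all tested genes, 11.4% were lower and 19.0% higher in that comparison. Comparing 20 with 2 months called 5 markers lower and 1 higher, or 4 and 5 under the median-of-ratios scaling described below. All tested genes had 49.6% lower and 18.6% higher there. Comparing 20 with 10 months called 4 markers lower and 3 higher, or 1 and 7 after that scaling, beside 53.3% and 11.4% of all tested genes. The scaled counts of all genes are given below. Tbxt, Krt8, Krt18, Krt19, Cd24 and Acan each had a mean of 871 FPKM or more at every age. Shh and Foxf1 were at or near 0. The 13 listed skeletal muscle markers summed to 43.1 to 46.3 FPKM at 2 months, 29.2 to 30.2 at 10 months and 7.26, 6.83 and 361.8 in the 3 libraries at 20 months; in that last library the muscle forms Cox6a2 and Cox8b stood at 5.13 and 1.12 FPKM, and both were left out of the tests. Red blood cell markers summed to 83.9 to 94.2, 9.78 to 10.6 and 37.1 to 42.5 FPKM at the 3 ages, and the 3 listed endothelial markers summed to at most 0.831 FPKM. Their part in the results was not tested. In bulk RNA, fewer cells of a type and less RNA per cell cannot be told apart.

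Promoter sequence was looked at because the nuclear subunit genes are textbook targets of nuclear respiratory factor 1 (NRF1), of the ETS-family factor GABPA (also called NRF2) and of YY1. RefSeq promoters on the rat assembly GRCr8 (250 bases before to 50 after each gene's start) were found, by gene name or synonym, for 84 of the 97 nuclear members. The tested subunits with more than 1 exon had 66 distinct ones. Single-exon copies took the promoter of their name. For Cox7a2l2, which is among the 66, the promoter lies on chromosome 14 and the deposited gene on chromosome 8, so it may belong to another gene. Ndufs6 and Atp5md, outside the 66, also differ in chromosome. The letters CCGGAAG (the ETS-family core), on either strand, were in 19 of the 66 (28.8%), against 11.2% of the 19005 protein-coding promoters and 9.22% of all 27457. AAGATGGCG (the YY1 word), on either strand, was in 9 (13.6%), against 2.29% of the protein-coding promoters. The palindromic NRF1 consensus was in 4 (6.06%), against 1.14% of the protein-coding promoters. None of the 3 words contains another, and 28 of the 66 promoters held at least 1 of them. A match of letters is a description of the sequence only. Below are the promoters of 3 genes that the values turn on: Cox4i1 and Atp5me, both higher at 20 months, and Ndufa4l2, the most abundant member, whose window held none of the 3 words. Capitals mark the matches.
Cox4i1, chr19:65630133-65630432, plus strand, GRCr8: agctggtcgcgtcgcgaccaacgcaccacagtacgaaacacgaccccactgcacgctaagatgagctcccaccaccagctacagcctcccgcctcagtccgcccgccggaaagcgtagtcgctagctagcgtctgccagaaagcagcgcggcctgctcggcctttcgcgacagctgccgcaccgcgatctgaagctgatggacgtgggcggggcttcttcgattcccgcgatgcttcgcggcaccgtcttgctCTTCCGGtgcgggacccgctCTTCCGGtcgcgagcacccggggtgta
Atp5me, chr14:1464610-1464909, plus strand, GRCr8: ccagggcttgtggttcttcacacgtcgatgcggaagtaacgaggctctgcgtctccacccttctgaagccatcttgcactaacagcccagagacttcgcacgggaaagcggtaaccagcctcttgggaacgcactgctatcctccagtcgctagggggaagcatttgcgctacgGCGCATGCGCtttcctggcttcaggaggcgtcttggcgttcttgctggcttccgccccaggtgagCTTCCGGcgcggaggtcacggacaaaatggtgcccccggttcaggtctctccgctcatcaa
Ndufa4l2, chr7:65241919-65242218, plus strand, GRCr8: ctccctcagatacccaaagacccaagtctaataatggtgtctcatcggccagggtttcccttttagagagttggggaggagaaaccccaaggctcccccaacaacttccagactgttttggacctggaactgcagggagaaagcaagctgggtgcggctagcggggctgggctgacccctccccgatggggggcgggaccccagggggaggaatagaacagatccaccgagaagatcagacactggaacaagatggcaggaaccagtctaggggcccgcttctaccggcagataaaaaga
In the Cox4i1 window the capitals are 2 ETS-family words on the minus strand, whose first bases lie at positions 4 and 24 from the start site. In the Atp5me window they are the NRF1 palindrome at -76 and an ETS-family word on the minus strand at -11.

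The mitochondrially encoded mRNAs, which code for 7 subunits of complex I, 1 of complex III, 3 of complex IV and 2 of complex V, were the members that differed most between ages. The median member stood at 105, 145 and 24.4 FPKM at 2, 10 and 20 months. At 20 months 12 of the 13 were lower than at 2 months and 12 were lower than at 10 months by the limma test with Benjamini-Hochberg adjustment over all 11708 genes (threshold 0.05). Mt-nd3 was the exception in both comparisons. For scale, 68.2% of all tested genes passed the same threshold at 20 against 2 months (49.6% lower, 18.6% higher), and 64.7% at 20 against 10 months (53.3% lower, 11.4% higher), so that a call alone was common. In the same 12 genes every library at 20 months was below every library at 2 months, which 51.0% of all tested genes also showed (70.4% did not overlap in either direction), and below every library at 10 months, which 55.3% showed (67.9% in either direction). The size was not: the median change of the 13 was -1.95 on the log2(FPKM + 1) scale at 20 against 2 months, where that of all tested genes was -0.20, and -2.46 at 20 against 10 months, where it was -0.23. All changes below are on that scale, with standard errors, and all adjusted p-values are from this fit.

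**Figure D1:**
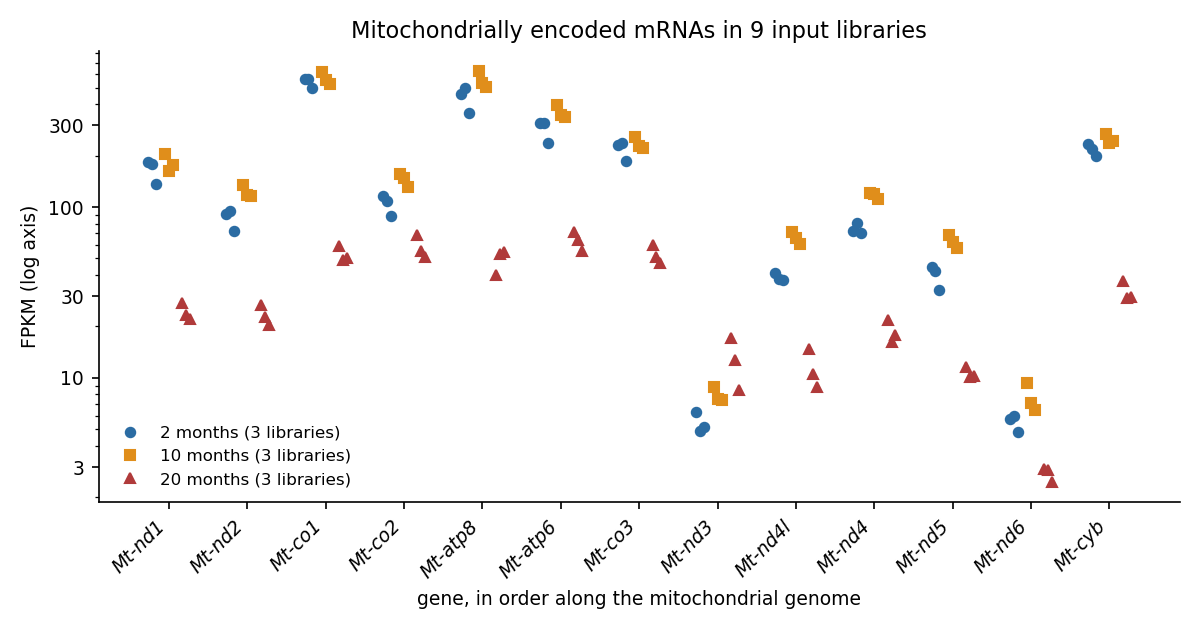
Level of each mitochondrially encoded mRNA in the 9 input libraries (FPKM, log axis), in gene order along the mitochondrial genome; each point is 1 library, coloured by age. The 20-month points lie below all others for every gene but Mt-nd3, whose points rise from 4.91 to 6.35 FPKM at 2 months to between 8.54 and 17.1 at 20 months.

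Mt-co1, the catalytic core of complex IV, measured 565, 561 and 495 FPKM in the 3 libraries at 2 months, 614, 552 and 524 at 10 months, and 59.2, 49.1 and 50.4 at 20 months. The libraries at 2 and 10 months overlapped, and those at 20 months were far below both. The fall was -3.33 ± 0.09 against 2 months (adjusted p = 1.85e-08) and -3.39 ± 0.09 against 10 months (adjusted p = 7.88e-08). The other complex IV mRNAs fell less. Mt-co3 went from 231, 237 and 185 FPKM at 2 months, by way of 258, 227 and 221 at 10 months, to 60.3, 50.8 and 47.0 at 20 months, a fall of -2.03 ± 0.11 against 2 months (adjusted p = 9.19e-07). Mt-co2, which carries the copper centre that takes electrons from cytochrome c, measured 116, 108 and 89.1 FPKM at 2 months, 156, 147 and 132 at 10 months, and 68.2, 55.5 and 51.1 at 20 months, a fall of -0.83 ± 0.12 against 2 months (adjusted p = 2.82e-04). In FPKM, a level per length, Mt-co1 was above both other mRNAs of this core in every library at 2 and 10 months, and the 3 mRNAs overlapped at 20 months.

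In complex V, Mt-atp8 measured 457, 495 and 356 FPKM at 2 months, 623, 534 and 502 at 10 months, and 40.2, 53.4 and 54.7 at 20 months. Its fall against 2 months was -3.12 ± 0.15 (adjusted p = 3.82e-07). Mt-atp6, the membrane subunit through which protons pass, went from 308, 309 and 237 FPKM at 2 months and 398, 345 and 336 at 10 months to 71.4, 64.5 and 55.5 at 20 months, a fall of -2.14 ± 0.12 (adjusted p = 9.71e-07). These genes overlap on the mitochondrial genome (Mt-atp8 at 7758 to 7961 and Mt-atp6 at 7919 to 8599 in the deposited coordinates) and are known to share 1 mRNA, so that the reads they hold cannot be fully told apart. Mt-cyb, the only mitochondrially encoded subunit of complex III, measured 233, 218 and 198 FPKM at 2 months, 269, 236 and 244 at 10 months, and 37.1, 29.5 and 29.6 at 20 months. It fell by 2.72 against 2 months (SE 0.10, adjusted p = 7.56e-08), and the 20-month libraries were all below the others.

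Of the complex I mRNAs, Mt-nd1, a membrane subunit at the coenzyme Q site, measured 183, 178 and 137 FPKM at 2 months, 204, 163 and 176 at 10 months, and 27.5, 23.4 and 22.3 at 20 months, a fall of -2.71 ± 0.13 against 2 months (adjusted p = 3.35e-07). Mt-nd2, Mt-nd4 and Mt-nd5, the antiporter-like membrane subunits, fell by 1.85, 1.95 and 1.80 against 2 months, and Mt-nd4l by 1.71. Mt-nd4 went from 72.0, 80.9 and 70.9 FPKM at 2 months and 120, 120 and 112 at 10 months to 21.8, 16.3 and 17.7 at 20 months. Mt-nd4l and Mt-nd4 overlap (9870 to 10166 and 10160 to 11537) and are also known to share 1 mRNA. Mt-nd6 is the only one of the 13 on the minus strand (13543 to 14061, overlapping the end of Mt-nd5). It measured 5.78, 6.0 and 4.83 FPKM at 2 months, 9.37, 7.14 and 6.5 at 10 months, and 2.94, 2.88 and 2.47 at 20 months, a fall of -0.79 ± 0.12 (adjusted p = 3.85e-04). The sources used here do not say whether reads were counted by strand, so its level may hold reads of the plus strand.

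Mt-nd3 went the other way. It measured 6.35, 4.91 and 5.17 FPKM at 2 months, 8.78, 7.53 and 7.42 at 10 months, and 17.1, 12.7 and 8.54 at 20 months. All 3 libraries at 20 months were above those at 2 months, and they varied more among themselves than those of the other ages. The rise against 2 months was 1.05 ± 0.20 (adjusted p = 0.00135). The difference from 10 months, 0.58 ± 0.20 (adjusted p = 0.0289), rested on the choice of libraries: 1 library at 20 months lay within the range of those at 10 months, and the adjusted p was 0.0753 and 0.0790 without 10-month replicates 2 and 3 and 0.0771 and 0.0704 without 20-month replicates 1 and 2. Across the 9 libraries the log2 level of Mt-nd3 correlated at r = -0.66 with the mean of the 13, where the other 12 gave 0.97 or higher; the 9 points share 3 ages, and the mean includes each gene itself. Mt-nd3 lies at 9451 to 9798, between Mt-co3 and Mt-nd4l, both of which fell.

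At 10 against 2 months the differences were smaller, and those called were rises. Of the 13, 6 were called higher and 0 lower (30.3% of all tested genes were called, 19.0% higher and 11.4% lower), and 0 were lower at an unadjusted p under 0.05. The median change was 0.40, beside 0.04 for all tested genes. The 6 were Mt-nd4l (0.75 ± 0.14), Mt-nd5 (0.66 ± 0.11), Mt-nd4 (0.65 ± 0.10), Mt-nd2 (0.51 ± 0.12), Mt-co2 (0.47 ± 0.12) and Mt-nd6 (0.40 ± 0.12), so 5 of the 7 complex I mRNAs and 1 of complex IV. Mt-nd4l measured 41.0, 37.7 and 37.4 FPKM at 2 months against 71.1, 65.8 and 60.7 at 10 months (adjusted p = 0.0048), and Mt-nd5 measured 44.4, 42.1 and 32.5 against 69.0, 62.3 and 57.8 (adjusted p = 0.00271). In 10 of the 13 genes every 10-month library was above every 2-month library, which 32.3% of all tested genes also showed (53.8% did not overlap in either direction). The libraries of Mt-nd1, Mt-co1 and Mt-co3 overlapped, with changes of 0.13, 0.06 and 0.12 that did not pass the test. The calls of Mt-nd4, Mt-nd4l and Mt-nd5 held when any 1 library was left out. That of Mt-nd2 gave an adjusted p of 0.0524 without 10-month replicate 1, and that of Mt-co2 gave 0.0625 without 2-month replicate 3 and 0.0712 and 0.0597 without 10-month replicates 1 and 2. For Mt-nd6 it was 0.0732, 0.0569 and 0.126 without 2-month replicates 1, 2 and 3, and 0.103 and 0.0670 without 10-month replicates 1 and 2.

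Set against the nuclear-encoded subunits of the same complexes, the mitochondrial mRNAs were less abundant at 20 months. The 13 together held 0.528, 0.532 and 0.430% of the summed FPKM of all genes at 2 months, 0.650, 0.572 and 0.551% at 10 months, and 0.10, 0.0884 and 0.0846% at 20 months. The 80 nuclear subunits held 1.63, 1.62 and 1.62%, then a mean of 1.499 ± 0.00206%, then 1.54, 1.5 and 1.43%. The ratio of mitochondrial to nuclear summed FPKM was 0.324, 0.328 and 0.266 at 2 months, 0.434, 0.381 and 0.368 at 10 months, and 0.0650, 0.0590 and 0.0590 at 20 months. The 3 ages did not overlap in it. Within complexes the mean ratio moved from 0.134 by way of 0.197 to 0.0405 in complex I, from 0.449 by way of 0.546 to 0.0631 in complex III, from 0.519 by way of 0.604 to 0.0958 in complex IV, and from 0.413 by way of 0.554 to 0.0642 in complex V (n = 3 libraries each). The nuclear sum of complex I counts Ndufa4, by its name, and Ndufa4l2, which alone held a mean of 48.2, 46.9 and 41.1% of it at 2, 10 and 20 months. The level of the complex I ratio thus depends much on 1 gene. A ratio within a library takes no scaling between libraries. As sums over chosen genes, these values carry no p-value.

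**Figure D2:**
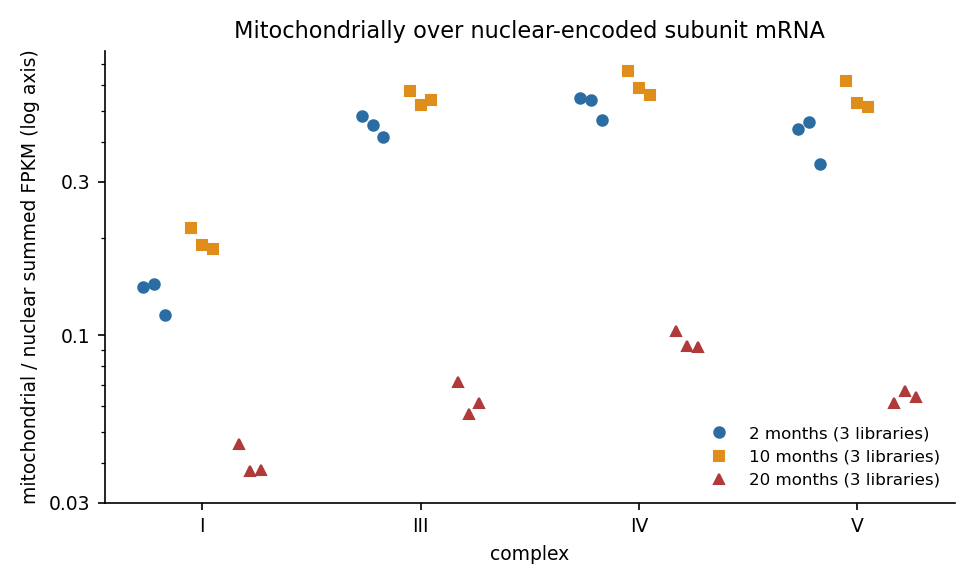
Summed FPKM of the mitochondrially encoded mRNAs over that of the nuclear-encoded subunits of the same complex (log axis), for complexes I, III, IV and V; each point is 1 library, coloured by age. In all 4 complexes the 20-month points lie lowest, for example between 0.0376 and 0.0458 in complex I against 0.115 to 0.144 at 2 months. The nuclear sum of complex I includes Ndufa4l2, a large part of it.

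The 80 nuclear-encoded subunits changed less than the mitochondrial mRNAs in median, and at 20 months they went both ways on the deposited scale. Their median level was 53.0, 51.1 and 49.98 FPKM at 2, 10 and 20 months, where the median of all tested genes was 8.97, 9.35 and 7.77 FPKM. At 10 against 2 months 3 were higher and 16 lower, whereas more of all tested genes were higher (19.0%) than lower (11.4%), with a median change of -0.08 beside 0.04 for all tested genes. At 20 against 2 months 21 were higher and 29 lower, with a median of -0.05 beside -0.20. At 20 against 10 months 25 were higher and 22 lower, with a median of 0.01 beside -0.23. In all, 62.5% of the 80 were called at 20 against 2 months and 58.8% at 20 against 10 months, near the shares of all tested genes given above, so that the number of calls was no mark of these genes. In 20 of the 80 no comparison passed the test.

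The split between higher and lower depended on the scale. When each library was scaled so that the median tested gene did not change (median-of-ratios scaling), the median of all genes moved from -0.20 to about 0 at 20 against 2 months. The nuclear subunits then numbered 46 higher and 13 lower at 20 against 2 months (all genes 3646 and 3658, in place of 2175 and 5811), 55 higher and 1 lower at 20 against 10 months (all genes 3142 and 3009, in place of 1339 and 6237), and 1 higher and 29 lower at 10 against 2 months. In either scaling the subunits sat above the median gene at 20 months and below it at 10 months against 2. The mitochondrial counts hardly moved, with 12 lower of 13 in both comparisons with 20 months and 5 higher at 10 months. Single libraries mattered most at 10 against 2 months: the 16 lower calls became 10 without 10-month replicate 3, and the 3 higher calls became 1 without 10-month replicate 2.

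**Figure D3:**
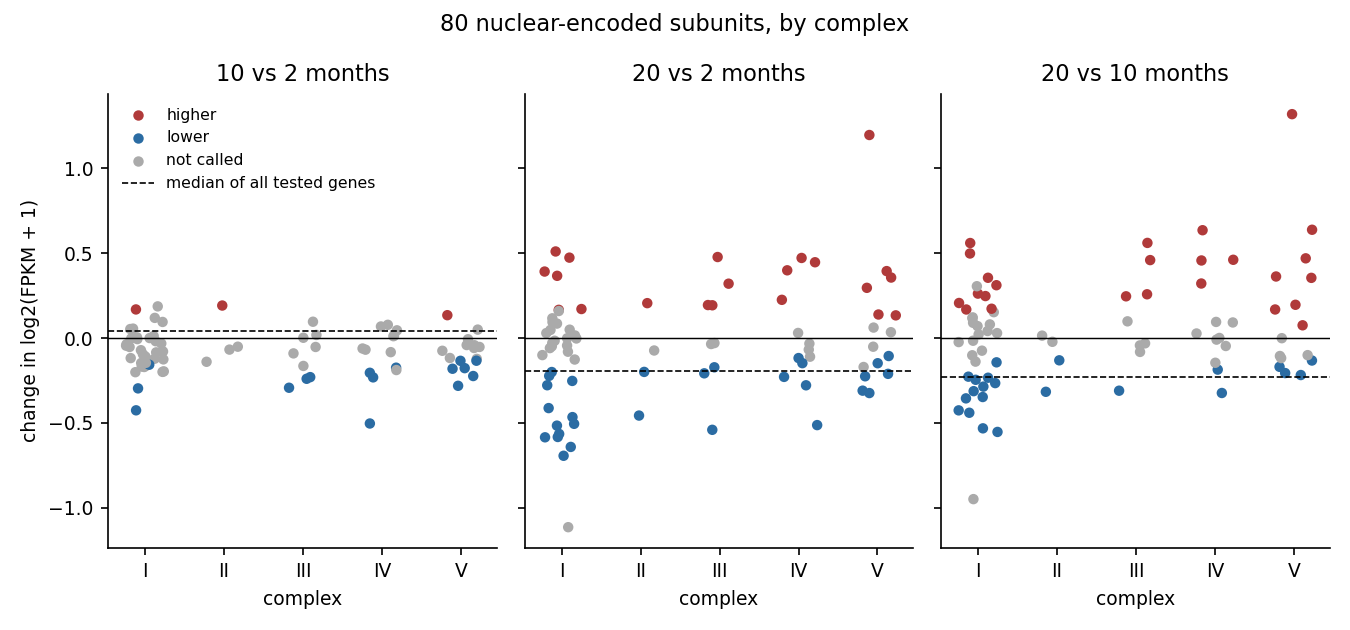
Change in log2(FPKM + 1) of each of the 80 tested nuclear-encoded subunits (points), by complex, in the 3 comparisons; the dashed line is the median of all tested genes, 0.04, -0.20 and -0.23 from left to right. Subunits of each complex lie on both sides of 0, with called rises in red, called falls in blue and the others in grey.

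Complex I takes in NADH through 7 conserved nuclear core subunits, besides the 7 mitochondrial ones, and carries a shell of accessory subunits around them. Of 38 tested gene models, 1 was higher and 3 lower at 10 against 2 months, 6 higher and 13 lower at 20 against 2 months, and 9 higher and 13 lower at 20 against 10 months. Among the accessory subunits (29 tested) the counts at 20 against 2 months were 5 higher and 8 lower. Of all tested genes, 19.0, 18.6 and 11.4% were higher and 11.4, 49.6 and 53.3% lower in the 3 comparisons in this order. With median-of-ratios scaling the complex had 0 higher and 13 lower, 20 and 9, and 21 and 1.

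The 5 largest called falls at 20 against 2 months were all in accessory subunits. Ndufc2 measured 58.0, 60.4 and 58.5 FPKM at 2 months, 54.0, 55.8 and 50.5 at 10 months, and 39.3, 34.0 and 35.2 at 20 months. The 20-month libraries were below all others, and the fall was -0.69 ± 0.06 against 2 months (adjusted p = 7.71e-06). Ndufb4 measured 152, 147 and 129 FPKM at 2 months, 117, 126 and 128 at 10 months, and 97.7, 91.9 and 83.5 at 20 months (-0.64 ± 0.07, adjusted p = 5.41e-05). Ndufs5 fell from 28.6, 32.3 and 23.7 FPKM at 2 months to 21.7, 14.9 and 19.0 at 20 months (-0.59 ± 0.14, adjusted p = 0.00514), with more spread than the others. In Ndufa8 and Ndufb6 the fall was already there at 10 months. Ndufa8 measured 96.5, 100.5 and 95.3 FPKM at 2 months, 80.7, 76.0 and 80.6 at 10 months, and 68.6, 65.7 and 59.9 at 20 months, and the 3 ages did not overlap (-0.30 ± 0.05 at 10 and -0.58 ± 0.05 at 20 against 2 months, adjusted p = 0.00285 and 1.09e-05). Ndufb6 measured 13.5, 13.0 and 12.4, then 9.04, 9.38 and 9.75, then 8.14, 9.04 and 8.14 FPKM (-0.43 ± 0.06 and -0.57 ± 0.06 against 2 months, adjusted p = 6.54e-04 and 2.18e-05). Each of these 5 falls against 2 months kept its direction and its call after median-of-ratios scaling. At 20 against 10 months the limma fit after that scaling gave -0.02 for Ndufa8 (adjusted p = 0.728). Whether Ndufa8 fell further between these ages thus depended on the scale.

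Other accessory subunits rose at 20 months. Ndufa2 measured 30.8, 31.0 and 32.0 FPKM at 2 months, 26.9, 28.5 and 27.7 at 10 months, and 45.4, 39.6 and 39.2 at 20 months. The rise was 0.39 ± 0.06 against 2 months (adjusted p = 2.30e-04) and 0.56 ± 0.06 against 10 months (adjusted p = 3.72e-05), with no overlap of the 20-month libraries with either age. Ndufc1, whose protein lies beside that of Ndufc2, rose from 13.7, 12.5 and 9.70 FPKM at 2 months to 14.6, 16.3 and 21.8 at 20 months (0.51 ± 0.15, adjusted p = 0.0131). Ndufa6 rose from 79.2, 82.7 and 73.1 FPKM to 116, 109 and 103 (0.47 ± 0.05, adjusted p = 5.33e-05), and Ndufb3 from 39.3, 38.9 and 37.8 FPKM to 52.8, 46.5 and 51.1 (0.37 ± 0.06, adjusted p = 3.92e-04). Ndufv2, a core subunit which holds an iron-sulphur cluster beside the NADH site, changed by -0.28 ± 0.06 (adjusted p = 0.00297). The Ndufv2 value was -0.05 after median-of-ratios scaling (adjusted p = 0.449), so its direction relative to the median gene was not called.

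Ndufa4l2 was the most abundant member. It is a paralog of Ndufa4 known as a target of hypoxia-inducible factor, and it measured 1481, 1463 and 1560 FPKM at 2 months, 1344, 1324 and 1360 at 10 months, and 1143, 1074 and 940 at 20 months. It alone made up 48.2 ± 1.57, 46.9 ± 0.257 and 41.1 ± 1.69% of the summed FPKM of the nuclear complex I genes at 2, 10 and 20 months (SD, n = 3). Ndufa4, which is named for complex I and is known to work as a subunit of complex IV, stood at 22.9, 21.8 and 19.2 FPKM at 2 months, 18.9, 20.5 and 18.1 at 10 months, and 15.2, 15.0 and 17.0 at 20 months. Both fell from 2 to 20 months, by 0.52 (SE 0.06, adjusted p = 8.73e-05) and by 0.41 (SE 0.08, adjusted p = 0.00105), while median-of-ratios scaling gave -0.29 and -0.20. Their ratio was 70.9 ± 8.92, 70.4 ± 5.38 and 67.3 ± 10.5 at 2, 10 and 20 months (SD), and an exact permutation test of the spread between the 3 ages gave p = 0.854 (n = 3 each).

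Ndufa1 could not be read at 20 months. It measured 42.4, 28.0 and 38.5 FPKM at 2 months and 39.1, 29.4 and 27.8 at 10 months, but 0.471, 84.1 and 38.0 at 20 months. The 20-month libraries spanned the range of the other ages and more, and the change against 2 months was -1.12 with a 95% interval from -3.87 to 1.63.

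Complex II, succinate dehydrogenase, also serves the citrate cycle, and its 4 subunits moved apart. Sdha, the flavoprotein that oxidises succinate, measured 63.1, 61.2 and 63.6 FPKM at 2 months, 73.4, 72.4 and 69.2 at 10 months, and 69.7, 74.8 and 72.7 at 20 months. All libraries at 10 and 20 months were above those at 2 months (0.19 ± 0.04 and 0.21 ± 0.04, adjusted p = 0.00528 and 0.00104). Sdhb, its iron-sulphur partner, measured 52.7, 57.2 and 59.8 FPKM at 2 months, 51.7, 49.9 and 52.0 at 10 months, and 42.0, 42.0 and 38.8 at 20 months, a fall of -0.46 ± 0.05 against 2 months (adjusted p = 5.08e-05), or of -0.23 when scaled by median of ratios. The membrane anchors moved less: Sdhc changed by -0.20 ± 0.05 (adjusted p = 0.00368) and Sdhd by -0.07 ± 0.04 (adjusted p = 0.162) at 20 against 2 months. Their direction depended on the scale, at 0.027 and 0.15 after median-of-ratios scaling.

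In complex III, which passes electrons from coenzyme Q to cytochrome c, 0 of the 9 tested gene models were higher and 3 lower at 10 against 2 months, 4 were higher and 3 lower at 20 against 2 months, and 4 were higher and 1 lower at 20 against 10 months. The shares of all tested genes were 19.0% higher and 11.4% lower at 10 against 2 months. They were 18.6% higher and 49.6% lower at 20 against 2 months and 11.4% and 53.3% at 20 against 10 months. With median-of-ratios scaling the counts were 0 and 4, 6 and 1, and 8 and 0. Uqcrfs1, the Rieske iron-sulphur protein, dipped at 10 months: it measured 36.5, 36.5 and 33.2 FPKM at 2 months, 29.9, 29.1 and 27.1 at 10 months, and 33.9, 33.7 and 35.9 at 20 months. The 10-month libraries were below both other ages (-0.29 ± 0.05 against 2 months, adjusted p = 0.00345; 0.26 ± 0.05 at 20 against 10 months, adjusted p = 0.00225). The small subunits parted at 20 months. Uqcrb measured 15.9, 16.05 and 16.1 FPKM at 2 months, 15.8, 16.3 and 16.6 at 10 months, and 24.5, 24.5 and 19.5 at 20 months (0.48 ± 0.08 against 2 months, adjusted p = 5.44e-04). Uqcr10 rose from 34.0, 32.2 and 33.3 FPKM at 2 months to 43.5, 45.4 and 36.6 at 20 months (0.32 ± 0.08, adjusted p = 0.00527). Uqcrq fell from 19.8, 21.5 and 20.4 FPKM to 15.1, 14.2 and 12.3 (-0.54 ± 0.07, adjusted p = 1.26e-04). Uqcrh, the hinge protein known for the docking of cytochrome c and the most abundant nuclear-encoded mRNA of the complex, changed by 0.19 ± 0.04, from 162, 161 and 165 FPKM to 184, 195 and 180 (adjusted p = 0.00137). A second Uqcrb gene model with a single exon on chromosome 1 stood between 55.4 and 67.6 FPKM in the 9 libraries and passed the test in 0 of the 3 comparisons. Reads shared between the gene and this copy may have been split between them, so the levels of both are uncertain.

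Complex IV had 13 tested gene models: 0 higher and 4 lower at 10 against 2 months, 4 higher and 5 lower at 20 against 2 months, and 4 higher and 2 lower at 20 against 10 months. All tested genes had 19.0% higher and 11.4% lower, 18.6% and 49.6%, and 11.4% and 53.3% in these 3 comparisons. Median-of-ratios scaling gave 0 and 4, 8 and 1, and 11 and 0. Its subunit 4 is made from alternative genes, of which Cox4i1 is the common form and Cox4i2 the form known to be induced by low oxygen. Cox4i1 (chromosome 19, 54245950 to 54252225 in the deposited coordinates, for which the sources name no build) measured 333, 337 and 327 FPKM at 2 months, 328, 340 and 337 at 10 months, and 498, 456 and 432 at 20 months. The libraries at 2 and 10 months overlapped and those at 20 months were all higher (0.47 ± 0.05 against 2 months, adjusted p = 2.49e-05; 0.01 ± 0.05 at 10 against 2 months, adjusted p = 0.884). Cox4i2 (chromosome 3, 148234193 to 148245416) measured 171, 172 and 172 FPKM at 2 months, 119, 117 and 127 at 10 months, and 126, 113 and 120 at 20 months. Here the change on the deposited scale lay between 2 and 10 months (-0.50 ± 0.05, adjusted p = 1.01e-04), and the libraries at 10 and 20 months overlapped. After median-of-ratios scaling the limma fit gave a rise of 0.26 at 20 against 10 months (adjusted p = 9.77e-04). Whether Cox4i2 changed between these ages thus depended on the scale. Against 2 months the fall at 20 months was -0.51 ± 0.05 (adjusted p = 1.11e-05), or -0.28 after median-of-ratios scaling. The ratio of Cox4i2 to Cox4i1 FPKM, which needs no scaling between libraries, was 0.516 ± 0.00848, 0.361 ± 0.0174 and 0.260 ± 0.0158 at 2, 10 and 20 months (SD, n = 3). The 3 ages did not overlap, and an exact permutation test over the 1680 ways to assign 9 libraries to 3 ages gave p = 0.00357, the smallest it can give (0.00714 adjusted over the 2 paralog pairs tested).

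**Figure D4:**
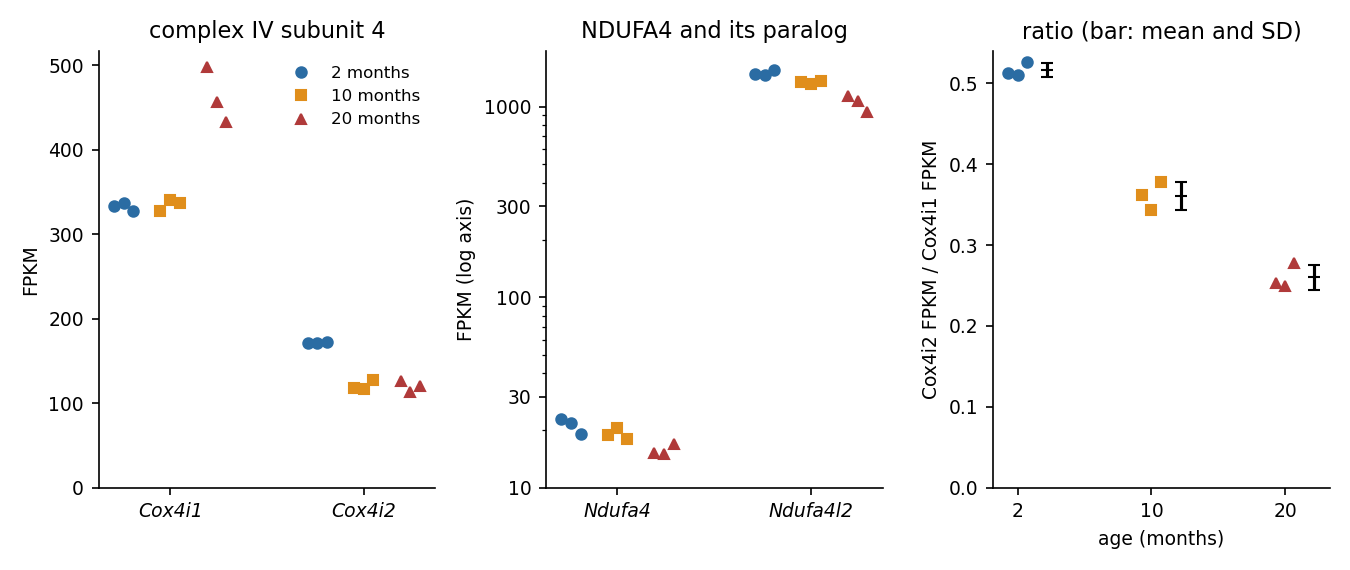
FPKM of Cox4i1 and Cox4i2 (left, linear axis), of Ndufa4 and Ndufa4l2 (middle, log axis) and the ratio of Cox4i2 to Cox4i1 (right, with mean and SD) in each library by age. The ratio steps from 0.510 to 0.526 at 2 months down to 0.249 to 0.278 at 20 months.

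Of the other complex IV subunits, Cox7c rose from 88.0, 91.2 and 81.1 FPKM at 2 months to 116, 119 and 109 at 20 months (0.40 ± 0.05, adjusted p = 7.83e-05), and its libraries at 10 months, at 91.6, 92.3 and 90.7, lay close to those at 2 months. Cox7a2l2, a gene model of the COX7A2 family, was lowest at 10 months, at 92.3, 93.7 and 91.0 FPKM, against 106, 113 and 107 at 2 months and 137, 128 and 118 at 20 months (-0.23 ± 0.05 at 10 against 2 months, adjusted p = 0.00913; 0.46 ± 0.05 at 20 against 10 months, adjusted p = 6.99e-05). Cox6c fell from 213, 214 and 211 FPKM at 2 months to 185, 176 and 164 at 20 months (-0.28 ± 0.04, adjusted p = 3.92e-04), but by -0.05 after median-of-ratios scaling (adjusted p = 0.299), that is, about as much as the median gene. The common forms Cox6a1 and Cox8a stood between 105 and 123 FPKM and between 55.4 and 74.4 FPKM in the 9 libraries. The muscle forms stayed below 1 FPKM, apart from Cox6a2 at 1.65 and 5.13 FPKM in 20-month replicates 1 and 3 and Cox8b at 1.12 FPKM in 20-month replicate 3. A single-exon Cox6b1 copy on chromosome 2 was higher at 20 months (0.45 ± 0.10 against 2 months, adjusted p = 0.00438), while Cox6b1 itself changed by -0.15 ± 0.04 (adjusted p = 0.0144), but by 0.081 with median-of-ratios scaling (adjusted p = 0.0974). Reads may have been split between them.

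Complex V had 16 tested gene models: 1 higher and 6 lower at 10 against 2 months, 6 higher and 6 lower at 20 against 2 months, and 8 higher and 4 lower at 20 against 10 months. All tested genes had 19.0% higher and 11.4% lower, 18.6% and 49.6%, and 11.4% and 53.3% in the same order. The counts were 0 and 7, 10 and 1, and 12 and 0 with median-of-ratios scaling. At 20 against 2 months, of the 5 genes of the catalytic F1 head and central stalk 1 was higher and 4 lower (2 and 1 with that scaling), and of the 4 small membrane subunits, a possible copy among them, 3 were higher and 1 lower (3 and 0). The difference between these groups was not tested. Atp5f1b, the catalytic beta subunit, measured 330, 325 and 326 FPKM at 2 months, 286, 288 and 290 at 10 months, and 302, 311 and 298 at 20 months. The fall at 10 months was -0.18 ± 0.03 (adjusted p = 0.00118). At 20 months it was -0.11 ± 0.03 against 2 months (adjusted p = 0.00602), but with median-of-ratios scaling it was 0.12 (adjusted p = 0.00456), so that the direction turned with the scale. Atp5f1c, the gamma subunit, changed by -0.32 ± 0.04 at 20 against 2 months (adjusted p = 1.75e-04), from 11.7, 11.5 and 11.5 to 9.40, 8.91 and 8.80 FPKM. The main Atp5f1c isoform, of 1084 bases, was listed far above the gene, at 64.0, 63.6 and 61.7 FPKM at 2 months and 50.7, 49.2 and 45.8 at 20 months. The listed gene FPKM of Atp5f1d, Atp5pb, Ndufa12, Ndufa8 and Uqcc2 was also below the sum of their isoforms, as was that of Atp5mc2 and Ndufv3 by a smaller part. The levels per length of such genes are therefore not comparable with the others.

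Atp5me, the e subunit by which ATP synthases pair in the membrane, measured 58.3, 50.4 and 50.8 FPKM at 2 months, 43.7, 44.4 and 42.3 at 10 months, and 69.0, 66.3 and 69.4 at 20 months. The 3 ages did not overlap: 10 months was lowest (-0.28 ± 0.06 against 2 months, adjusted p = 0.00525) and 20 months highest (0.36 ± 0.06 against 2 months, adjusted p = 3.77e-04; 0.64 ± 0.06 against 10 months, adjusted p = 1.78e-05). Atp5mg, the g subunit that works beside it, rose from 169, 182 and 163 FPKM at 2 months to 245, 212 and 220 at 20 months (0.39 ± 0.06, adjusted p = 2.76e-04), with 158, 164 and 165 at 10 months. Atp5mf, the f subunit, went the other way, from 266, 253 and 268 FPKM at 2 months to 227, 236 and 231 at 10 months and 220, 208 and 205 at 20 months (-0.31 ± 0.04, adjusted p = 7.40e-05), though by -0.08 after median-of-ratios scaling (adjusted p = 0.0679). Atp5pf, a peripheral stalk subunit, rose from 40.6, 44.4 and 44.1 FPKM at 2 months to 59.6, 50.4 and 49.5 at 20 months (0.30 ± 0.07, adjusted p = 0.00448). Atp5f1e, the epsilon subunit of the central stalk, was lowest at 10 months, at 77.8, 83.4 and 73.8 FPKM against 90.3, 92.8 and 91.6 at 2 months and 106, 99.1 and 97.7 at 20 months. Of the c ring genes, which encode 1 mature protein, Atp5mc2 was highest as listed, at 239.8, 248.6 and 249.8 FPKM at 2 months. It rose to 263, 280 and 267 at 20 months (0.13 ± 0.03, adjusted p = 0.00501). Atp5md is listed as a single-exon model on chromosome 10, at 9.52, 3.86 and 5.15 FPKM at 2 months and 15.7, 15.8 and 12.5 at 20 months (1.20 ± 0.24, adjusted p = 0.0018); it may be a copy, and its value is uncertain.

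**Figure D5:**
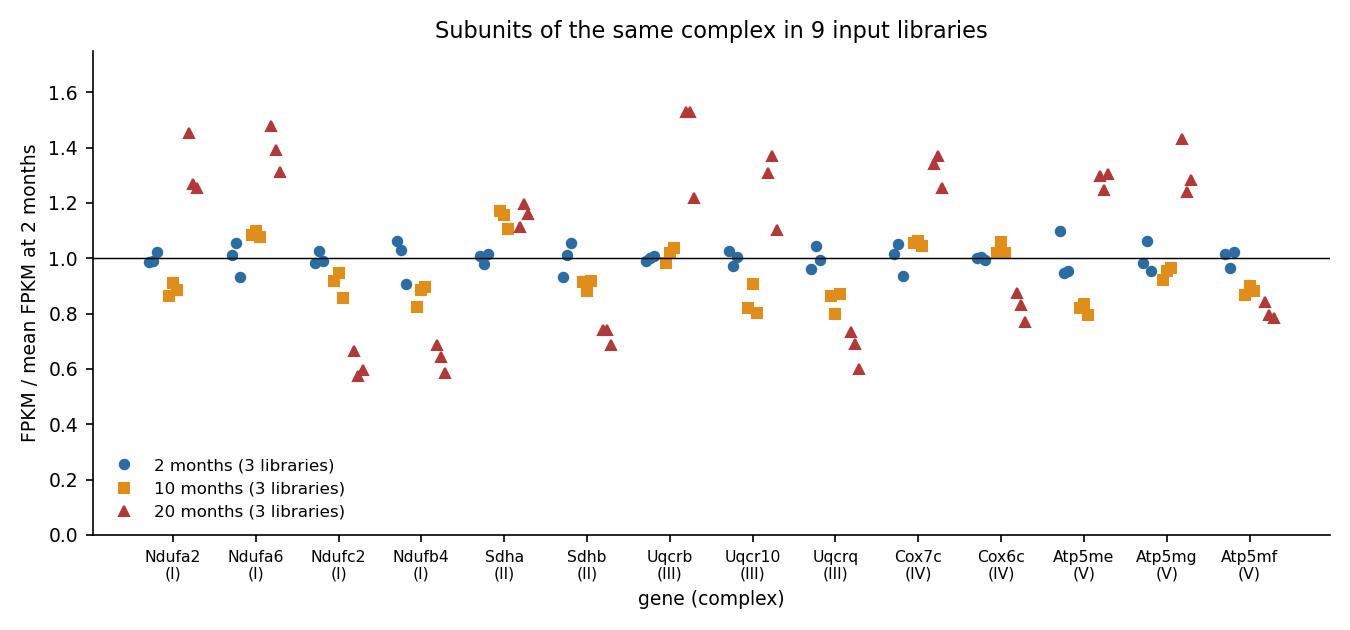
FPKM of 14 nuclear subunits in each library, divided by the gene's mean at 2 months, coloured by age, with the complex under each name. On the deposited scale some subunits within complexes I, II, III, IV and V lie above 1 and others below it at 20 months. For example, Ndufa2 lies at 1.25 to 1.45 and Ndufc2 at 0.576 to 0.666. After median-of-ratios scaling the falls of Cox6c and Atp5mf at 20 against 2 months were -0.05 and -0.08 in log2 and were not called.

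The factors that build the complexes without staying in them were fewer and less abundant. Of 8 complex I assembly factors, 1 was higher and 0 lower at 10 against 2 months, and 2 were higher and 2 lower in each comparison with 20 months (0 and 1, 3 and 2, and 4 and 1 with median-of-ratios scaling). All tested genes had 19.0% higher and 11.4% lower at 10 against 2 months. They had 18.6% and 49.6% at 20 against 2 months, and 11.4% and 53.3% at 20 against 10 months. Ndufaf2 rose from 0.951, 1.3 and 0.822 FPKM at 2 months to 2.49, 2.55 and 1.62 at 20 months (0.66 ± 0.15, adjusted p = 0.00337), and Ndufaf4 from 1.85, 1.76 and 1.89 to 3.21, 3.39 and 3.02 (0.57 ± 0.08, adjusted p = 1.36e-04). Ndufaf7 fell from 3.98, 3.44 and 3.52 FPKM to 1.89, 2.39 and 2.21 (-0.56 ± 0.08, adjusted p = 2.33e-04), and Ndufaf1 from 4.88, 5.12 and 4.82 to 3.49, 3.25 and 3.03 (-0.48 ± 0.08, adjusted p = 3.99e-04). The 20-month libraries of these 4 genes did not overlap those at 2 months, which 70.4% of all tested genes also showed. Uqcc1 changed by -0.31 ± 0.06 (adjusted p = 0.00134) and Atp5if1, which blocks ATP synthase from running backwards, by -0.28 ± 0.08 (adjusted p = 0.0127). After median-of-ratios scaling these were -0.10 and -0.05 and were not called.

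Among 34 tested assembly factors with other names, 1 was higher and 3 lower at 10 against 2 months, 1 higher and 16 lower at 20 against 2 months, and 2 higher and 17 lower at 20 against 10 months. After median-of-ratios scaling the last 2 comparisons gave 11 higher and 10 lower, and 9 and 8, so the surplus of falls went with the scale. All 11708 tested genes had 19.0% higher and 11.4% lower, 18.6% and 49.6%, and 11.4% and 53.3% in the 3 comparisons. After that scaling 3646 of them were higher and 3658 lower, and 3142 and 3009, in the last 2. All genes thus leaned to falls as well and lost that lean after scaling. Cox20, a chaperone of the mitochondrially encoded COX2 protein, measured 19.6, 18.1 and 18.03 FPKM at 2 months, 20.2, 18.9 and 17.5 at 10 months, and 10.8, 8.55 and 9.48 at 20 months, a fall of -0.89 ± 0.08 against 2 months (adjusted p = 1.41e-05). Pet100 (-0.69 ± 0.06, adjusted p = 6.97e-06), which takes part in complex IV assembly, and Ecsit (-0.67 ± 0.06, adjusted p = 1.49e-05), of the complex I assembly complex, also fell. Cox14, which works on the mitochondrially encoded COX1, rose by 0.61 ± 0.10 (adjusted p = 4.60e-04).

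The nuclear genes that keep, copy and transcribe mitochondrial DNA and handle its RNA went both ways at 20 months. Of 29 tested, 10 were higher and 1 lower at 10 against 2 months, 9 higher and 11 lower at 20 against 2 months, and 1 higher and 17 lower at 20 against 10 months (5 and 1, 12 and 5, and 9 and 5 after median-of-ratios scaling). The shares of all tested genes were 19.0% higher and 11.4% lower, 18.6% and 49.6%, and 11.4% and 53.3%. After that scaling 1771 and 1701, 3646 and 3658, and 3142 and 3009 of the 11708 were called higher and lower. Tfam, which packs mitochondrial DNA and starts its transcription, measured 21.9, 21.3 and 21.2 FPKM at 2 months, 26.8, 25.8 and 25.2 at 10 months, and 22.2, 23.95 and 23.6 at 20 months (0.26 ± 0.04 at 10 against 2 months, adjusted p = 0.00173). Tfb2m, its partner at the promoter, measured 8.94, 9.82 and 8.13, then 12.4, 12.7 and 12.2, then 14.3, 14.3 and 12.2 FPKM (0.44 ± 0.08 at 10 and 0.55 ± 0.08 at 20 against 2 months, adjusted p = 0.00315 and 2.03e-04). In both genes every library at 20 months was above every library at 2 months. Of all tested genes 19.4% also showed this, and 70.4% did not overlap in either direction. Whether the levels of Tfam and Tfb2m bear on the mitochondrial mRNAs was not tested. Polg, the catalytic subunit of the mitochondrial DNA polymerase, measured 9.60, 9.06 and 9.78 FPKM at 2 months, 8.89, 9.48 and 8.87 at 10 months, and 6.33, 6.82 and 6.19 at 20 months (-0.49 ± 0.05, adjusted p = 3.99e-05). Prorp, the nuclease of mitochondrial RNase P that cuts tRNAs out of the precursor, fell by 0.71 (SE 0.07, adjusted p = 2.37e-05). Fastk rose at both ages, by 0.48 ± 0.05 at 10 and 0.35 ± 0.05 at 20 against 2 months (adjusted p = 1.297e-04 and 1.172e-04), and is known for binding Mt-nd6 RNA.

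Of 10 tested regulators, 3 were higher and 0 lower at 10 against 2 months, 1 higher and 4 lower at 20 against 2 months, and 0 higher and 7 lower at 20 against 10 months (3 and 1, 4 and 3, and 2 and 3 after median-of-ratios scaling). All tested genes had 19.0% higher and 11.4% lower, 18.6% and 49.6%, and 11.4% and 53.3%, with their scaled counts as given above. Ppargc1a, the coactivator known from muscle and fat, is listed at 0 in 8 of the 9 libraries and was not tested. Its relative Pprc1 rose by 0.47 ± 0.06 at 10 against 2 months (adjusted p = 6.18e-04), Nrf1 by 0.31 ± 0.06 (adjusted p = 0.00514) and Gabpa by 0.36 ± 0.05 (adjusted p = 6.99e-04). Gabpa was 0.35 ± 0.05 above 2 months at 20 months as well (adjusted p = 1.52e-04). Yy1 fell from 25.9, 24.6 and 24.2 FPKM at 2 months to 17.4, 17.1 and 17.6 at 20 months (-0.50 ± 0.04, adjusted p = 3.97e-06). The 28 subunits with at least 1 of the promoter words above had a median change of -0.04 at 20 against 2 months (9 higher, 8 lower). For the 38 without a word it was -0.06 (8 higher, 16 lower), and the shares of all tested genes are those given above. The difference between the 28 and the 38 was not tested.

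Electron carriers and coenzyme Q synthesis (17 tested) had 5 higher and 0 lower at 10 against 2 months, 1 and 5 at 20 against 2 months, and 0 and 8 at 20 against 10 months; after median-of-ratios scaling these were 3 and 0, 8 and 2, and 3 and 2. Coq7, a hydroxylase of coenzyme Q synthesis, fell by 0.48 at 20 against 2 months (SE 0.06, adjusted p = 1.03e-04). Of 20 citrate cycle and pyruvate dehydrogenase genes, 3 were higher and 2 lower, then 5 and 9, then 1 and 9 in the same order (2 and 4, 12 and 5, and 12 and 4 after scaling). Idh3a, the catalytic subunit of the NAD-dependent isocitrate dehydrogenase, measured 37.4, 36.8 and 36.9 FPKM at 2 months, 31.7, 34.0 and 32.3 at 10 months, and 23.2, 20.5 and 19.0 at 20 months (-0.80 ± 0.06, adjusted p = 6.45e-06). Pdk4, a kinase that turns off pyruvate dehydrogenase, stood at 3.85, 9.46 and 10.4 FPKM at 20 months, all above its 1.73, 1.71 and 1.62 at 2 months. Of 25 genes of the outer membrane, import and cristae, 7 were higher and 3 lower, then 5 and 13, then 1 and 11 (7 and 6, 10 and 3, and 13 and 1 after scaling). Hspa9, the motor of protein import, measured 59.3, 61.2 and 61.7 FPKM at 2 months and 76.1, 78.5 and 75.1 at 10 months (0.33 ± 0.04, adjusted p = 3.77e-04). In all these lists a count that leaned to falls at 20 months under the deposited scale leaned less so, or the other way, once the median gene was held level. All tested genes also lost their lean to falls. They had 18.6% higher and 49.6% lower at 20 against 2 months, and 11.4% and 53.3% at 20 against 10 months. Once scaled, 3646 and 3658, and 3142 and 3009, of the 11708 were called. At 10 against 2 months 19.0% of all tested genes were higher and 11.4% lower (1771 and 1701 genes once scaled).

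Use of alternative transcripts could be tested in 2 members, Ndufa12 and Atp5f1d, of the 8 with more than 1 listed isoform. At 10 against 2 months, 20 against 2 months and 20 against 10 months, 0 of their 4 isoforms passed limma's test, 0 had an unadjusted p under 0.05, and 0.253, 10.8 and 6.98% of all 2765 tested isoforms passed. The shorter Ndufa12 isoform held 56.7% of the gene's mean FPKM, and its log2 ratio to the other isoform changed by 0.11 ± 0.10 at 20 against 2 months (adjusted p = 0.522).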

How the data were processed

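The 9 input libraries were used as the authors deposited them, in FPKM per gene and isoform with read coverage per isoform. Tools in the submitters' processing notes, given without roles, are StringTie 1.3.4d, HISAT2 2.0.4, cutadapt 1.9, edgeR and DESeq2. The sources used here do not give the genome build or strand setting. Sequenced gigabases and read length were inferred from the deposited coverage signal and the FPKM. The 9 antibody-enriched libraries are not analysed here, and no depth in reads is known for a single gene, so no counting interval is given.

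Genes at 1 FPKM or more in at least 3 of 9 libraries were tested on log2(FPKM + 1), a pseudocount that shrinks changes of low genes, in R 4.3.3 with limma 3.58.1 (trended empirical Bayes, 1 fit of all 9 libraries, Benjamini-Hochberg adjustment over 11708 genes, threshold 0.05). For isoform use, limma was run on each isoform's log2 ratio to the other isoforms of its gene (pseudocount 0.5). The fit was tested on simulated data. Paralog ratios were tested with exact permutation. Alternatives were pseudocounts of 0.1 and 5, no filter, a filter of 5 FPKM, median-of-ratios scaling, quantile normalization, rescaling without ribosomal and mitochondrial genes, fits of 2 ages only, array weights, a replicate block and leaving out each library; leaving out the single-exon gene models was added after the data were seen. Promoters are from RefSeq on GRCr8, a build not used for any coordinate of the deposited tables.

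The members and gene lists were chosen with earlier results of these data known. Named with values by rule were every mitochondrially encoded member, per class and comparison up to 4 called members with the largest change, the 2 most abundant per class, and tissue- or oxygen-dependent paralogs; less telling ones, such as Ndufs1, Ndufv1, Uqcrc1, Cox5b, Uqcr11, Ndufaf8, Ndufaf5, Uqcc2 and Uqcc3, were left out, as the rule allows. Ndufa1, Ndufa6, Ndufb3, Ndufv2, Sdhd, Atp5pf, and the genes named from the pathway lists, were chosen after their values were seen.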

Additional observations from a re-analysis of the deposited data

How the results depend on the processing

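Calls of nuclear subunits that held in all 9 fits leaving out 1 library were 1 of 3 higher and 9 of 16 lower at 10 against 2 months, 20 of 21 and 24 of 29 at 20 against 2 months, and 22 of 25 and 18 of 22 at 20 against 10 months; the mitochondrial mRNAs kept 3 of 6 higher at 10 against 2 months, 12 of 12 lower in both comparisons with 20 months, and 0 of 1 higher at 20 against 10 months. Of 132 called changes that the text draws on, a set that leaves out many of these lost calls, leaving out 1 library ended 4 (Mt-nd2, Mt-nd6 and Mt-co2 at 10 against 2 months and Mt-nd3 at 20 against 10 months); pseudocounts, fits of 2 ages, array weights and the replicate block ended 0; no filter ended 2, rescaling without ribosomal and mitochondrial genes 2, quantile normalization 5 and median-of-ratios scaling 6. These 6 kept their direction. At 20 against 2 months median-of-ratios scaling also reversed Atp5f1b (0.12), which stayed called, and Sdhc (0.027) and Cox6b1 (0.081), which lost their calls too. It reversed Sdhd (0.15) as well, which had not been called and was called after it. By construction this scaling sets the median gene to about 0.

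Counts of nuclear subunits, higher and lower, were 1 and 29 at 10 against 2 months, 46 and 13 at 20 against 2 months and 55 and 1 at 20 against 10 months with median-of-ratios scaling. With quantile normalization 16 were lower at 20 against 2 months, and 39 were higher and 10 lower at 20 against 10 months. Rescaled without ribosomal and mitochondrial genes, 18 were lower at 20 against 2 months. At 10 against 2 months, fits of 2 ages gave 5 and 25, array weights 5 and 29, and leaving out 1 library 1 to 4 higher (1 without 10-month replicate 2) and 10 to 23 lower (10 without 10-month replicate 3). The cause was not tested. Without the single-exon models the counts were 3 and 16, 19 and 29, and 23 and 22. As shares of the summed FPKM without ribosomal protein and mitochondrial genes, nuclear subunits held 1.88, 1.78 and 1.85% at the 3 ages, and mitochondrial mRNAs 0.574, 0.703 and 0.113%.

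Replicate numbers did not pair the samples: deviations of same-numbered libraries correlated at -0.04 to 0.0491 over 9 pairs. With the replicate block 3 nuclear subunits were higher and 12 lower at 10 against 2 months, 21 and 29 at 20 against 2 months, and 25 and 21 at 20 against 10 months, and 12 mitochondrial mRNAs stayed lower in both comparisons with 20 months.

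The number of libraries, 3 an age, and the unknown read counts limit what can be said of the least abundant members, such as Ndufaf2 and Mt-nd6. The reads of single-exon copies and of overlapping mitochondrial genes cannot be told apart. The 20-month libraries differ from the others in inferred read length and composition.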

Other observations

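The ribosomal RNAs of the mitochondrial genome were listed at low levels, highest at 10 months in mean and lowest at 20 months. The 12S ribosomal RNA (68 to 1025 in the deposited coordinates) stood at 12.0 ± 1.76, 17.9 ± 2.97 and 4.61 ± 0.874 FPKM at 2, 10 and 20 months, and the 16S ribosomal RNA (1094 to 2664) at 6.63 ± 1.29, 10.7 ± 1.37 and 4.72 ± 1.25 (SD, n = 3). The libraries had been selected for poly(A) RNA, so these levels do not measure the ribosomal RNA of the cells. The changes were not tested.

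The minor isoform of the c ring gene Atp5mc2 held 0.677, 15.7 and 16.5% of the gene's FPKM in the 3 libraries at 2 months, 16.8, 15.5 and 14.1% at 10 months, and 1.09, 1.32 and 1.39% at 20 months. One library at 2 months thus stood with those at 20 months, and the other libraries at 2 and 10 months stood together. Its mean share, 9.23%, was under the range set for the isoform test, so no test was made.

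The 5 tested genes outside the respiratory chain whose log2 levels lay nearest to the mean of the 13 mitochondrial mRNAs over the 9 libraries were Xpo7 (Pearson r = 0.999), Fam98a (0.996), Apc (0.996), a gene model listed as AABR07063425 (0.996) and Ctu1 (0.996). The 9 points share 3 ages, and the 5 were picked as the highest of all tested genes. The gene model AABR07063425 stood at 44.99 ± 3.55, 64.2 ± 1.74 and 5.06 ± 0.512 FPKM at the 3 ages, Ctu1 at 2.03 ± 0.140, 2.32 ± 0.0204 and 0.732 ± 0.0594, and Xpo7 at 15.4 ± 0.195, 16.1 ± 0.129 and 12.0 ± 0.198.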
